A study of Mus musculus with 30 samples.

Results

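The 10 DNA replication licensing genes examined here were Mcm2, Mcm3, Mcm4, Mcm5, Mcm6, Mcm7, Cdc6, Cdt1, Pcna and Ccne1. They were taken by gene symbol from tables of 20321 mouse genes, and all 10 were found and were expressed highly enough to be tested. RNA was sequenced from the digit tips of 30 adult male C57Bl/6 mice in which the third digit of a hindlimb had lost at most 33% of the terminal phalanx, P3, a cut after which the mouse digit tip regrows. Wounds were left unsutured and no group carried a transgene or drug. The labels count separate mice at each time point, although a library at 0h and another at 12h carry the same animal tag in their titles. At 7d after amputation 6 mice were taken, and 3 at each of the other 8 time points, which were 0h, 3h, 6h, 12h and 24h, then 3d, 14d and finally 21d.

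Before a cell copies its DNA, it marks the places where copying can begin, a step called origin licensing. The origin recognition complex, Cdc6 and Cdt1 load pairs of the ring-shaped helicase built from Mcm2 to Mcm7, and cyclin E, made from Ccne1, activates Cdk2 to help start copying. Pcna is the sliding clamp that holds DNA polymerases on the strand, and many of these genes are known targets of the E2F transcription factors, which are active when a cell commits to divide.

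The promoter stretches of 6 licensing genes are shown because they hold the E2F letters, which the choice of the genes did not use. RefSeq promoters on GRCm38.p6, from 250 bases before to 50 bases after each gene start, were given for 9 of the 10 genes. Mcm7 had 2 of them, and Mcm4 had none in the table. The letters searched on both strands were TTTCCCGC, TTTGGCGC, TTTCGCGC, TTTGCCGC and TTTGGCGG, and matches may overlap. Capitals mark those letters or their reverse complement, and each stretch reads 5′ to 3′ on the gene's strand, with positions counted from 1 at the first base of the gene start and from -1 just before it.
Mcm6, chr1:128359725-128359835, minus strand, -130 to -20: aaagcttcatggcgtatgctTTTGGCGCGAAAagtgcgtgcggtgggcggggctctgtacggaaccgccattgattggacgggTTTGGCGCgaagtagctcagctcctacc
Mcm5, chr8:75109336-75109387, plus strand, -173 to -122: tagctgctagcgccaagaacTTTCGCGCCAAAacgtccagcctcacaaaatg
Mcm7, chr5:138172021-138172068, minus strand, -185 to -138: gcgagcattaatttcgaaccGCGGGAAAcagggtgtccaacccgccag
Cdc6, chr11:98907993-98908040, plus strand, -158 to -111: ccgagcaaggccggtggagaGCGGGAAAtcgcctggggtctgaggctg
Mcm3, chr1:20820266-20820294, minus strand, 19 to 47: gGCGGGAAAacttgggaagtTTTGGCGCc
Cdt1, chr8:122568036-122568064, plus strand, 22 to 50: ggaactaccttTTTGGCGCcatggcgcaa

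The Mcm6 and Mcm5 stretches each held a pair of overlapping matches on opposite strands. The first Mcm7 promoter held a further match after its start, at 17 to 24. E2F letters were thus present in 6 of the 10 member promoters, against 913 of all 32851 promoters, or 2.78%, and 581 of the 13247 promoters of tested genes, or 4.39%. They were in none of the Mcm2, Pcna and Ccne1 windows, nor in the second Mcm7 window. CCAAT, the letters bound by the factor NF-Y, stood in 7 of the 10 member promoters and in 37.4% of all promoters. The CHR letters TTTGAA or TTCGAA, an element known from genes of the later cell cycle, stood in 2 of the 10 and in 19.2% of all promoters. These matches are descriptions of letters, not of bound sites.

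The libraries held between 3167625 and 16277816 expected counts each, so Cdc6 rested on 5 to 84 counts per mouse and Ccne1 on 0 to 110, while Pcna had 179 or more. Dates in the sample titles fell into an earlier span with 16 mice and a later one with 14, called campaigns here, although what the dates mark is not stated. All mice at 3h and 12h came from the earlier campaign and all at 21d from the later one, so campaign and time cannot be told apart there. The 3 mice cut on the left foot were all at 7d. The values of Mcm7, Pcna and Cdc6 are uncertain to the extent that reads are shared with near-identical copies. Of the 25-base words in Mcm7 transcripts 37.4% also occur in other annotated genes, mostly Gm5487, as do 25.1% of those of Pcna, mostly in Pcna-ps2, and 11.3% of those of Cdc6, mostly in Gm9430. These shares come from GENCODE gene models, newer than those the reads were mapped to. Mcm7 exons also share 12.6% of their bases with Ap4m1, Cops6, Mir25 and Mir93. The counting method shares reads with several hits out by estimate, which can leave fractional counts. Counts were nevertheless whole numbers in 29 of 30 mice for Mcm7, 25 for Pcna and 30 for Cdc6, so no division of reads is visible there. For Mcm5, with 2.39% of its words shared, counts were whole in 0 mice, so its value includes reads divided by estimate in every library. Values below are CPM, a gene's count relative to the library total scaled with edgeR's TMM factors, unless TPM, which is also relative to gene length, is named. In whole tissue, fewer dividing cells and less RNA per cell cannot be told apart.

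Per length, Pcna was the most abundant member in all 30 mice, with a median level of 104.5 TPM and a range of 69.3 to 135 TPM. Its mean log2(TPM + 1) level was 6.69 ± 0.27 (SD, n = 30), which was 1.76 ± 0.46 above that of Mcm6, the next gene in order. Mcm6, Mcm7, Mcm4, Mcm3 and Mcm5 followed at mean log2 levels of 4.93, 4.91, 4.63, 4.58 and 4.56. Within a mouse, Mcm6 exceeded Mcm7 in 18 of 30 mice, Mcm4 exceeded Mcm3 in 16 and Mcm3 exceeded Mcm5 in 16, so these neighbours did not differ beyond their spread. Mcm7 exceeded Mcm4 in 24 mice, but the mean log2 difference of 0.27 was smaller than its SD of 0.37. Mcm2 was apart, 0.92 ± 0.30 below Mcm5 on the log2 TPM scale and lower in all 30 mice. It was the lowest of the 6 helicase genes in each of the 30 mice. In the helicase ring itself, each subunit is known to occur once. Cdt1, Ccne1 and Cdc6, the loader and cyclin genes, were the least abundant, with median levels of 8.16, 4.94 and 3.06 TPM. Cdt1 exceeded Ccne1 in 23 mice and Ccne1 exceeded Cdc6 in 24, both by less than the SD of the difference.

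**Figure D1:**
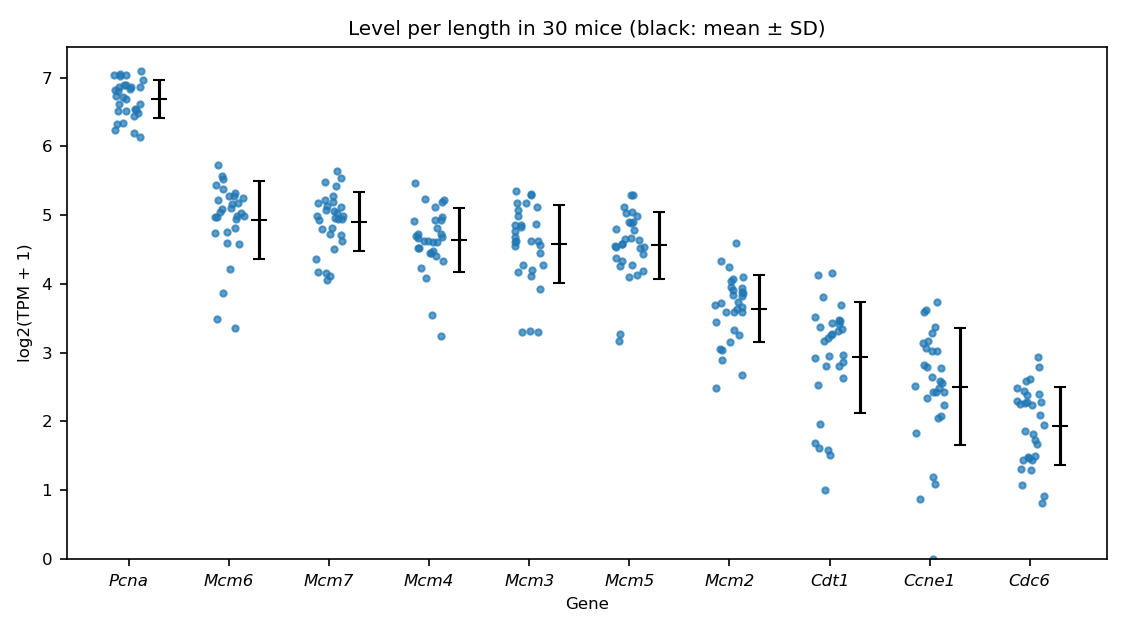
Level per length of the 10 licensing genes as log2(TPM + 1), with genes in order of their mean on the horizontal axis, 1 blue point per mouse (30 mice) and the mean ± SD in black. Pcna lies above all other genes, Mcm2 lies below the other helicase genes, and the 5 helicase genes from Mcm6 to Mcm5 overlap.

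Summed levels of the helicase genes were lowest on average at 3h and highest at 7d. Summed over Mcm2 to Mcm7, the level was 144 ± 9.57 TPM at 0h (SD, n = 3) and 77.7 ± 10.3 TPM at 3h (n = 3). It was 119 ± 2.33 TPM at 6h, 124 ± 11.5 at 12h and 143 ± 77.9 at 24h (n = 3 each). It then stood at 165 ± 30.0 TPM at 3d (n = 3), 187 ± 18.3 at 7d (n = 6), 166 ± 19.5 at 14d and 157 ± 5.93 at 21d (n = 3 each). The 3 mice at 3h, between 66.1 and 85.5 TPM, all lay below the 3 at 0h, between 135 and 154 TPM. These TPM were not scaled further between libraries. On log2(TPM + 1) in limma, the median change of all tested genes at 3h against 0h was itself -0.14. The 24h mice spanned 57.8 to 211 TPM, wider than any other time point.

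Mcm7 (chr5:138164583-138172422 on GRCm38) had the lowest p among the members in the test over time given further on. At 0h it measured 44.0, 46.7 and 39.7 CPM, at 3h 22.6, 28.8 and 26.0 CPM, and at 6h 27.7, 38.8 and 30.5 CPM. At 12h the mice were at 34.3, 30.1 and 22.3 CPM, and at 24h at 45.9, 37.9 and 32.0 CPM. All mice at 3h, 6h and 12h were thus below all 0h mice, as was so for 10.6%, 9.19% and 9.86% of all tested genes. At 3d Mcm7 measured 40.5, 38.5 and 44.9 CPM. At 7d it ran from 38.8 through a median of 58.3 to 73.7 CPM, at 14d it was 37.1, 43.7 and 46.7 CPM and at 21d 47.7, 46.3 and 52.7 CPM. The 4 later-campaign mice at 7d, at 53.6 to 73.7 CPM, exceeded all mice of any other time point, while both earlier-campaign mice at 7d, at 38.8 and 47.2 CPM, lay within their range.

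Mcm6 (chr1:128331590-128359664) was lowest at 3h, with 24.9, 13.4 and 21.3 CPM against 42.3, 36.1 and 47.8 CPM at 0h. It stood at 34.0, 34.4 and 32.5 CPM at 6h, 37.9, 35.7 and 38.3 at 12h and 59.5, 44.2 and 18.9 at 24h. The 6h mice were close together and below the 0h mice, whereas the 24h mice reached both above and below them. At 6h 9.19% of all tested genes lay below 0h in this way. At 3d the values were 31.0, 40.3 and 49.5 CPM, at 7d 46.3 to 57.5 with a median of 50.2, at 14d 51.0, 53.5 and 44.4 and at 21d 54.9, 48.8 and 56.5 CPM. All 3 of the 21d mice were above all 0h mice, as was so for 12.5% of all tested genes (edgeR adjusted p = 0.880 for Mcm6 there).

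Mcm3 (chr1:20802968-20820312) measured 38.0, 35.4 and 31.0 CPM at 0h and 12.8, 21.2 and 14.5 CPM at 3h, with no overlap. It was 21.1, 34.9 and 22.1 CPM at 6h, 23.3, 21.0 and 24.4 at 12h and 50.8, 28.9 and 17.1 at 24h. The 12h mice again lay below all 0h mice, as they did for 9.86% of all tested genes. At 3d it was 38.7, 30.9 and 44.2 CPM, at 7d 25.9 to 63.0 with a median of 45.6, at 14d 33.2, 45.7 and 37.9 and at 21d 44.4, 34.2 and 41.8 CPM. From 3d on, each time point overlapped 0h.

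Mcm2 (chr6:88883474-88898780), Mcm5 (chr8:75109569-75128439) and Mcm4 (chr16:15623897-15637400) were called neither over time nor at any time against 0h in edgeR. Mcm2 had mean levels of 19.9 ± 2.89 CPM at 0h and 11.7 ± 4.01 at 3h, and 21.9 to 22.8 CPM at the times from 7d on. Its 3 mice at 3h and its 3 at 6h, at 7.54 to 15.5 and 10.6 to 15.8 CPM, all lay below the 0h mice, at 17.1 to 22.9 CPM. Of all tested genes 10.6% and 9.19% did so at these times. Mcm5 had 36.7 ± 5.99 CPM at 0h, 25.8 ± 9.89 at 3h (SD, n = 3 each) and 49.8 ± 9.85 at 7d (n = 6). At 6h Mcm4 alone of the helicase genes lay above all 0h mice, at 39.6, 38.7 and 45.4 CPM against 32.9 to 37.9 CPM. Its log2 fold change there was 0.19 ± 0.27 (SE, edgeR adjusted p = 0.977). Of all tested genes 8.61% lay above 0h in this way at 6h, near the share of 1 in 10 members. Mcm4 was highest at 3d, with 35.4, 68.2 and 53.7 CPM, and its 3 mice at 14d and 6 mice at 7d also lay above all 0h mice. The same was so for 13.6% of all tested genes at 14d and 3.92% at 7d.

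**Figure D2:**
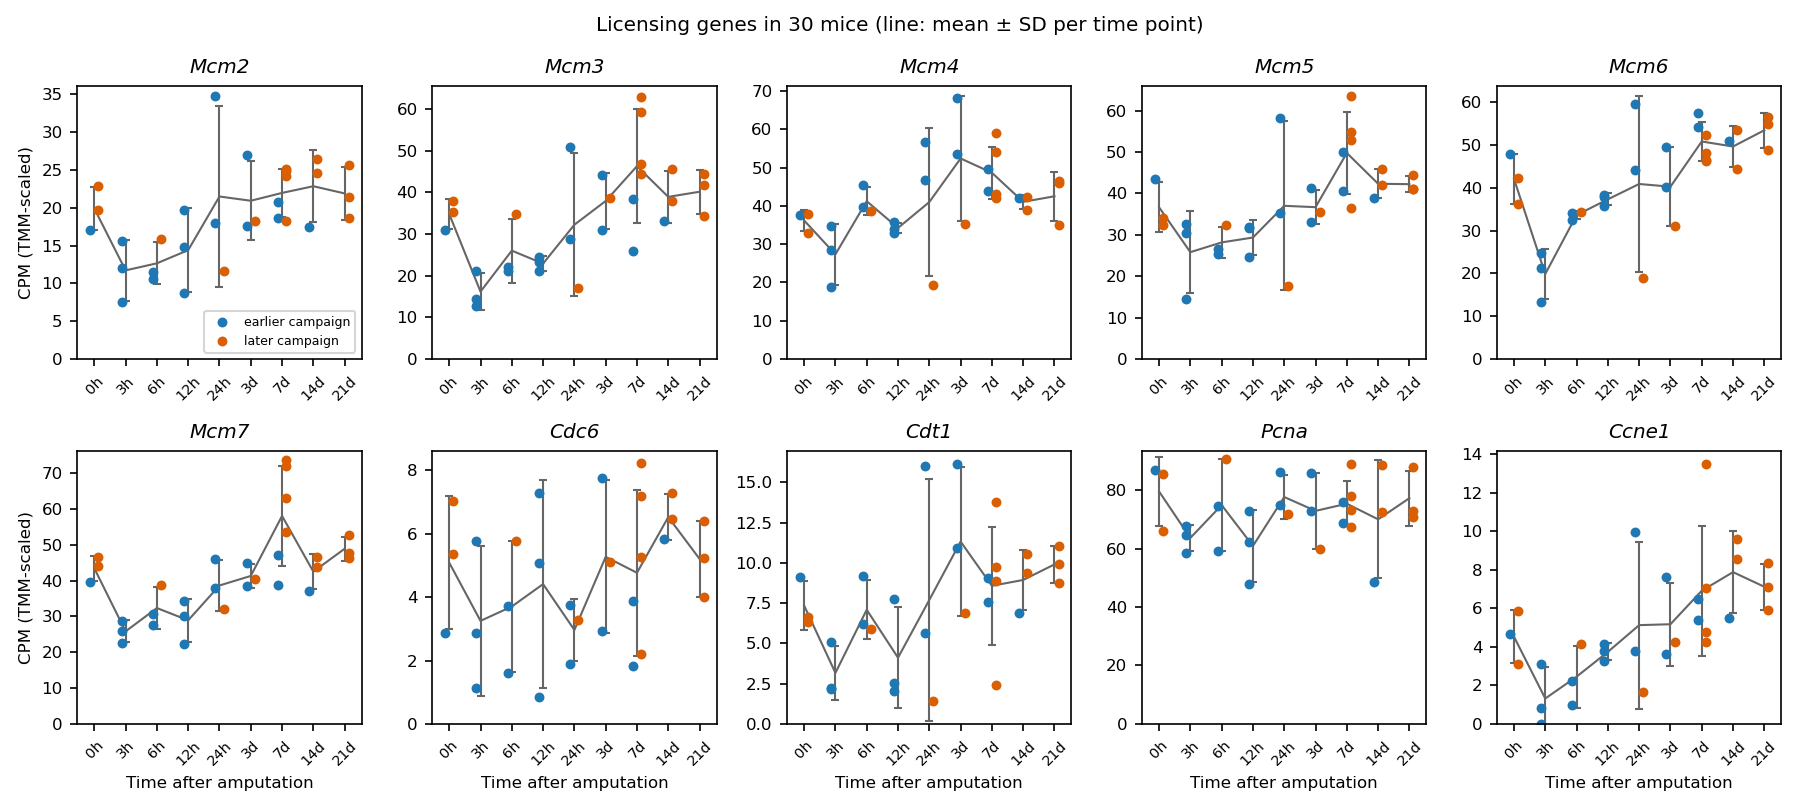
CPM (TMM-scaled, vertical axes from 0) of each licensing gene against time after amputation in 30 mice, with blue points for the earlier and orange points for the later campaign, and a grey line through the mean ± SD of each time point. The 3h mice are lowest on average for 8 of 10 genes, and the orange 24h mouse is below both blue 24h mice for 9 of them.

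Of the loaders, Cdt1 (chr8:122568015-122573554), the factor that brings the helicase to the origin, measured 6.32, 6.61 and 9.12 CPM at 0h and 5.10, 2.23 and 2.17 CPM at 3h, with no overlap. It was highest at 3d, with 6.88, 16.2 and 10.9 CPM, and its 24h mice spread from 1.40 to 16.0 CPM. Cdc6 (chr11:98907801-98923940), the ATPase that works beside it, showed no such order. Its 0h mice had 5.36, 7.04 and 2.88 CPM, and at each time from 3h to 24h at least 1 mouse lay within that range. Its 5 to 84 counts per mouse leave a wide sampling error.

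Pcna (chr2:132249162-132253314) had the narrowest range of means. Its mean level ran from 61.0 CPM at 12h to 79.6 CPM at 0h, a 1.31-fold range, whereas the range of the other members' means was 1.92-fold (Mcm4) to 5.99-fold (Ccne1). Ccne1 (chr7:38097984-38107534) measured 5.84, 3.09 and 4.64 CPM at 0h and 0.815, 3.13 and 0 CPM at 3h. The value of 0 is 1 library in which no read was counted, and 3 counts there would have been 1.084 CPM. At 6h it was 2.21, 4.15 and 0.979 CPM and at 12h 4.13, 3.81 and 3.26 CPM. The 14d mice had 5.47, 9.57 and 8.58 CPM and the 21d mice 8.33, 7.08 and 5.93 CPM, the latter all above the 0h mice. At 21d 12.5% of all tested genes lay above 0h in this way, and Ccne1 had an edgeR adjusted p of 0.978.

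Whether each gene varied over the 9 time points was asked with a quasi-likelihood F-test in edgeR over all mice and genes. It called 3 of the 10 members, Mcm7 (adjusted p = 0.00126), Mcm6 (adjusted p = 0.0104) and Mcm3 (adjusted p = 0.0126), against 9.01% of all tested genes. Mcm5, Ccne1, Mcm2, Mcm4 and Cdt1 had adjusted p between 0.122 and 0.351 in edgeR, Pcna 0.738 and Cdc6 0.848. DESeq2 called 5 members, adding Ccne1 and Mcm5, and 18.1% of all tested genes. With campaign as a covariate in edgeR, Mcm6 and Mcm7 stayed called and Mcm3 had an adjusted p of 0.0620, with 12.2% of all tested genes called. Without the 3h mice only Mcm7 was called among the members (edgeR adjusted p = 0.0138), with 6.37% of all tested genes. Leaving out the 3h mouse numbered 2 gave Mcm6 an edgeR adjusted p of 0.0616 and Ccne1 one of 0.0489. Leaving out the 24h mouse numbered 1 gave Mcm5 one of 0.0282.

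Against 0h alone, edgeR called none of the 10 members at any of the 8 later times. The share of all tested genes called was 0.254% at 3h, 0.189% at 6h, 0.167% at 12h, 0.493% at 24h, 0.551% at 3d, 2.34% at 7d, 1.61% at 14d and 1.94% at 21d. All 8 comparisons shared the same 3 control mice. At 3h all 10 fitted log2 fold changes were negative, from -1.68 for Ccne1 to -0.32 for Pcna, with a median of -0.77, while the median over all tested genes was -0.01. At an unadjusted p under 0.05, 5 members passed at 3h (Mcm2, Mcm3, Mcm6, Mcm7 and Ccne1), 1 at 12h and 1 at 7d (Mcm7 both times), and none at the other times. The same threshold was passed by 10.9% of all tested genes at 3h, 7.67% at 12h and 13.3% at 7d, so 1 of 10 members was near or below that share. Mcm6 came nearest at 3h, with a log2 fold change of -1.08 ± 0.26 (SE) and an edgeR adjusted p of 0.0742, and DESeq2 called it there and no other member at any time, with 1.09% of all tested genes called at 3h. With campaign as a covariate edgeR called Mcm6 at 3h as well (log2 fold change -1.32 ± 0.25, adjusted p = 0.0188, 0.341% of all tested genes called). At 3h, 5 members (Mcm2, Mcm3, Mcm6, Mcm7 and Cdt1) had all 3 mice below all 3 at 0h, which was so for 10.6% of all tested genes. At 6h and 12h 3 members each did, beside 9.19% and 9.86%. All mice lay above all at 0h for 1 member at 6h, 7d and 14d and 2 at 21d, beside 8.61%, 3.92%, 13.6% and 12.5%.

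At 6h and 12h 9 and 10 members had negative log2 fold changes against 0h, with medians of -0.40 and -0.35. At 24h 5 were positive and 5 negative, and the median was -0.0049. At 7d 8 were positive, with a median of 0.34, at 14d 8 with 0.21 and at 21d 9 with 0.20. None of these single-gene differences passed the adjusted threshold.

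**Figure D3:**
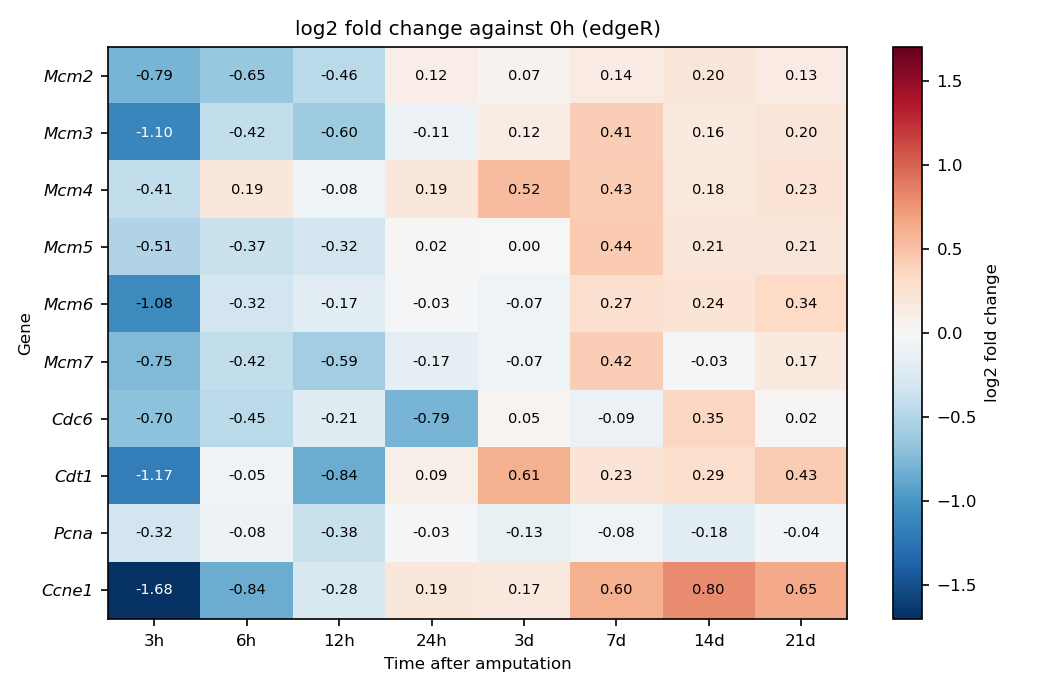
Fitted log2 fold change of each licensing gene (rows) against 0h at 8 later times (columns), from edgeR, with blue below and red above 0. All 10 genes are negative at 3h, and 9 of 10 are positive at 21d, but no cell passed the adjusted threshold in edgeR.

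The first day and the late phase were then set against each other, as the mean of 7d, 14d and 21d less the mean of 3h, 6h, 12h and 24h, with 12 mice on each side. This comparison was chosen with the Ccne1 profile of these data already known. Ccne1, Mcm3, Mcm6, Mcm7, Mcm2 and Mcm5 were higher at the late times, by 1.50-fold to 2.52-fold. Of the 10 members 6 were called higher and 0 lower by edgeR, beside 9.32% of all tested genes called higher and 6.09% called lower. The members' median log2 fold change was 0.65, against 5.8e-05 over all tested genes.

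For Mcm7, the first-day mice ran from 22.3 through a median of 30.3 to 45.9 CPM and the late mice from 37.1 through 47.5 to 73.7 CPM. Of the 12 late mice, 9 were above every first-day mouse. The log2 fold change was 0.67 ± 0.11 (SE), with an edgeR adjusted p of 7.9e-05. Mcm6 ran from 13.4 through 34.2 to 59.5 CPM on the first day and from 44.4 through 51.7 to 57.5 CPM late. All but 1 of the first-day mice lay below every late mouse, the exception being a 24h mouse. Its log2 fold change was 0.69 ± 0.13, with an edgeR adjusted p of 0.000496.

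Mcm3 ran from 12.8 through 21.7 to 50.8 CPM on the first day and from 25.9 through 43.1 to 63.0 CPM late, and its log2 fold change was 0.82 ± 0.16 (edgeR adjusted p = 0.000526). Ccne1, the cyclin, had the widest difference, from a median of 3.20 CPM to 6.77 CPM, a log2 fold change of 1.34 ± 0.33 (edgeR adjusted p = 0.00566). Since its profile was known when the comparison was chosen, this is no independent support for Ccne1. The called helicase genes followed Ccne1 over the 30 mice, with r from 0.70 (Mcm2 and Mcm6) to 0.81 (Mcm3). Their calls are therefore not independent of that choice either, and all members were chosen with earlier results of these data known. Every late mouse was above the first-day median of Mcm2, Mcm3, Mcm5, Mcm6, Mcm7 and Ccne1. For this separation, and for those of Mcm7 and Mcm6 above, no share over all tested genes is given, so they only describe these mice. Mcm5 differed by 0.58 ± 0.15 on the log2 scale (edgeR adjusted p = 0.00737) and Mcm2 by 0.60 ± 0.17 (edgeR adjusted p = 0.0136).

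The other 4 members did not pass. Cdt1 differed by 0.81 ± 0.30 (SE) on the log2 scale, as much as Mcm3 but with a wider error (edgeR adjusted p = 0.0655), and DESeq2 called it (adjusted p = 0.0393). It was also called by edgeR when 1 of 4 mice was left out, with adjusted p of 0.0224 without 12h mouse 3, 0.00908 without 24h mouse 1, 0.0401 without 3h mouse 1 and 0.0280 without 7d mouse 3. Mcm4 differed by 0.31 ± 0.14 and Cdc6 by 0.63 ± 0.33 (edgeR adjusted p = 0.124 and 0.203). Pcna differed by 0.11 ± 0.10, with late mice at 48.7 to 88.9 CPM and first-day mice at 47.9 to 90.9 CPM.

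The campaigns were unevenly spread over this comparison, since 10 of the 12 first-day mice were from the earlier and 9 of the 12 late mice from the later one. Depth went with campaign, with a median of 5083530 expected counts per library in the earlier and 9836320 in the later one. Its part in the difference was not tested. Within the earlier campaign (10 first-day and 3 late mice) 9 of 10 members had a higher mean log2(CPM + 1) late, with a median difference of 0.46. Within the later campaign (2 and 9 mice) 9 of 10 did as well, with a median of 0.80, and Pcna was the exception in both, at -0.06 each time. The first-day side of the later campaign held only a 6h and a 24h mouse. Without that 24h mouse, the lowest of its group for 9 members, the median was 0.49 and 8 members were higher late, Cdc6 and Pcna being lower (1 and 9 mice). With campaign as a covariate in edgeR, Mcm6 differed by 0.92 ± 0.14 (SE), Mcm4 and Cdt1 became called (adjusted p = 0.0315 and 0.0448) and Mcm2 did not pass (adjusted p = 0.0837), with 7.55% of all tested genes called higher. In a fit of the times that had mice of both campaigns, 6h and 24h were set against 7d and 14d with campaign as a covariate. Only Mcm6 was called among the members (0.57 ± 0.16, edgeR adjusted p = 0.0308), beside 7.15% of the genes tested in either direction. With 1 of 10 members called, this fit was near that share. There the log2 differences were 0.44 for Mcm3, 0.39 for Mcm7, 0.55 for Mcm5, 0.40 for Mcm2 and 0.97 for Ccne1. Without the 3h mice, 5 of the 6 called members stayed called and Mcm2 had an edgeR adjusted p of 0.0700, beside 11.5% of the genes tested called in either direction.

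**Figure D4:**
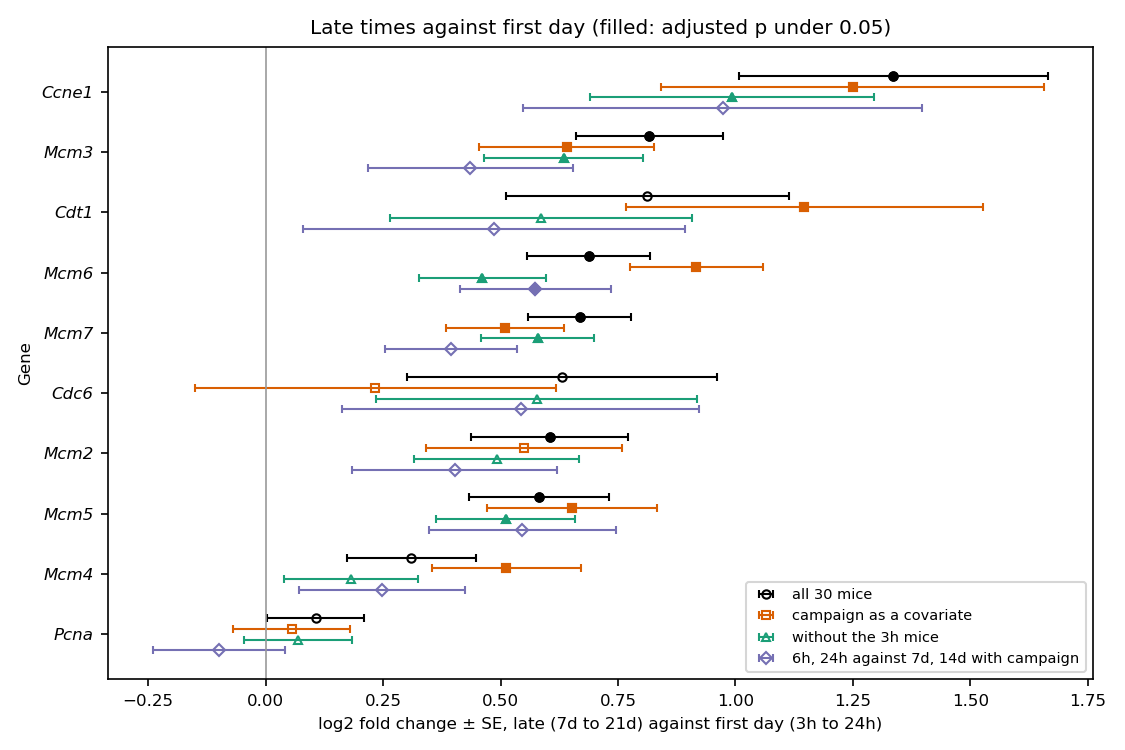
Log2 fold change ± SE of each licensing gene between late times (7d, 14d and 21d) and the first day (3h to 24h) from edgeR, for all 30 mice (black circles), with campaign as a covariate (orange squares), without the 3h mice (green triangles) and for 6h and 24h against 7d and 14d with campaign as a covariate (purple diamonds), filled where the adjusted p was under 0.05. Values are above 0 for 9 of 10 genes in all 4 fits, and Pcna lies on both sides of 0.

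A test of whether the time course itself differed between campaigns, over the 21 mice of 6 time points, called 0 of 10 members in edgeR, beside 0.883% of the genes tested. At an unadjusted p under 0.05, 5 members passed (Mcm3, Mcm4, Mcm5, Mcm6 and Pcna), beside 13.1% of the genes tested, and their adjusted p started at 0.186. No other tool was run on this test.

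The 24h mice were far apart. Their mean log2(CPM + 1) over the members was 5.00 and 4.37 in mice 1 and 2, of the earlier campaign, and 3.67 in mouse 3, of the later one. The earlier-campaign mice thus differed as well, mouse 1 being the highest of the group for 9 members and mouse 2 for 1. The 2 of the earlier campaign averaged 51.9 CPM of Mcm6, 51.8 of Mcm4 and 46.8 of Mcm5, or 123%, 143% and 128% of the 0h means. The mouse of the later campaign had 18.9, 19.4 and 17.5 CPM of these genes, 36.5% to 37.5% of the other 2 mice. For Cdt1 it had 12.9% of their mean, for Ccne1 23.8% and for Mcm7 76.3%. It was the lowest 24h mouse for 9 members, all but Cdc6. Without this mouse the F-test over time called 5 members in edgeR, adding Mcm4 (adjusted p = 0.0345) and Mcm5 (adjusted p = 0.0228). With 1 later-campaign mouse at 24h, campaign and the individual mouse cannot be told apart.

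Other genes of the replication pathway were taken from 6 lists of 85 genes, all of which were tested. Of these, 22 were called higher late than on the first day and 3 lower, with a median log2 fold change of 0.23, and 14 were called over the time course. Of all tested genes 9.32% were called higher, 6.09% lower and 9.01% over the time course. Among the 11 genes of origin recognition and licensing control, 2 were called higher, Gmnn, the inhibitor of Cdt1 (log2 fold change 0.77), and Mcm10, a factor that helps start the loaded helicase (1.21), and Orc5, a subunit of the origin recognition complex, was called lower (-0.67). The median of that list was 0.03, beside the members' 0.65.

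Of the 15 helicase activation genes, 4 were called higher and 0 lower. These were Ccna2, cyclin A (0.92 ± 0.13 SE), its kinase Cdk2 (0.63), and Gins1 (0.94) and Gins2 (0.81) of the GINS complex, which joins the helicase when it starts. Of the 25 replication fork genes, 8 were called higher and 0 lower, and 24 of 25 log2 fold changes were positive. They were Lig1, the ligase that seals Okazaki fragments (1.40 ± 0.21 SE), the checkpoint mediator Clspn (1.18), Timeless of the fork protection complex (0.93), the histone chaperone subunits Chaf1b (0.85) and Chaf1a (0.72), the polymerase subunit Pole (0.66), the flap nuclease Fen1 (0.64) and Rpa2 (0.54), which coats single strands. Rfc3, of the clamp loader, was called over the time course (edgeR adjusted p = 0.0473) and not between these phases. Of the 7 nucleotide supply genes, 4 were called higher, namely the thymidine kinase Tk1 (1.32), the dUTPase Dut (0.91) and the ribonucleotide reductase genes Rrm2 (0.80) and Rrm1 (0.36).

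Among the 17 genes of the E2F and Rb family, E2f7 (1.30), E2f1 (0.94) and E2f8 (0.58) were called higher and Ccnd2, a D-type cyclin, lower (-0.73). The list's median was 0.03. E2f1, an activator of S-phase genes, had late mice at 35.3 to 91.4 CPM and first-day mice at 12.2 to 36.6 CPM. Of the 10 genes of licensing turnover, Dtl, which directs the destruction of Cdt1 on Pcna-bound DNA, was called higher (0.95 ± 0.16 SE), and Cdkn1a, a kinase inhibitor, lower (-0.38). With 1 of 10 called each way, this list was near the shares of all tested genes, 9.32% higher and 6.09% lower. Letters of the E2F motif stood in 40.0% of the promoters of the fork list and 38.5% of those of origin recognition, 37.5% of the E2F and Rb family, 33.3% of helicase activation, 7.69% of licensing turnover and 0 of 6 of nucleotide supply.

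The 15 mitosis genes were used as a comparison within the same cycle. Late against the first day, 10 were called higher and 0 lower, with a median log2 fold change of 0.74, beside 9.32% and 6.09% of all tested genes. Examples were Top2a (0.89 ± 0.15 SE), Mki67 (0.74 ± 0.14), Bub1b (0.93 ± 0.17) and Birc5 (1.22 ± 0.26). Over the time course 9 were called, Cenpf among them (edgeR adjusted p = 0.0152), beside 9.01% of all tested genes. Their mean log2(CPM + 1) was 5.02 ± 0.04 at 0h, 3.86 ± 0.17 at 3h, 4.81 ± 0.27 at 6h, 4.83 ± 0.12 at 12h and 4.19 ± 0.43 at 24h (SD, n = 3 each). The licensing genes had 4.52 ± 0.06, 3.71 ± 0.12, 4.19 ± 0.23, 4.12 ± 0.15 and 4.35 ± 0.67 at the same times. Both sets were lowest at 3h. Within a mouse, the licensing mean less the mitosis mean was -0.49 ± 0.09 at 0h, -0.15 ± 0.09 at 3h, -0.62 ± 0.12 at 6h, -0.71 ± 0.14 at 12h and 0.16 ± 0.27 at 24h (SD, n = 3 each). It was -0.11 ± 0.42 at 3d, -0.21 ± 0.19 at 7d (n = 6), -0.47 ± 0.19 at 14d and -0.28 ± 0.28 at 21d (n = 3 where not given). It was above 0 in 2 of 3 mice at both 24h and 3d, and each 24h mouse was above each mouse at 0h, 6h and 12h. This difference of 2 scores was described after its values were seen and was not tested. The CHR letters stood in 78.6% of the mitosis promoters, against 20.0% of the members' promoters, and the E2F letters in 7.14% against 60.0%.

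**Figure D5:**
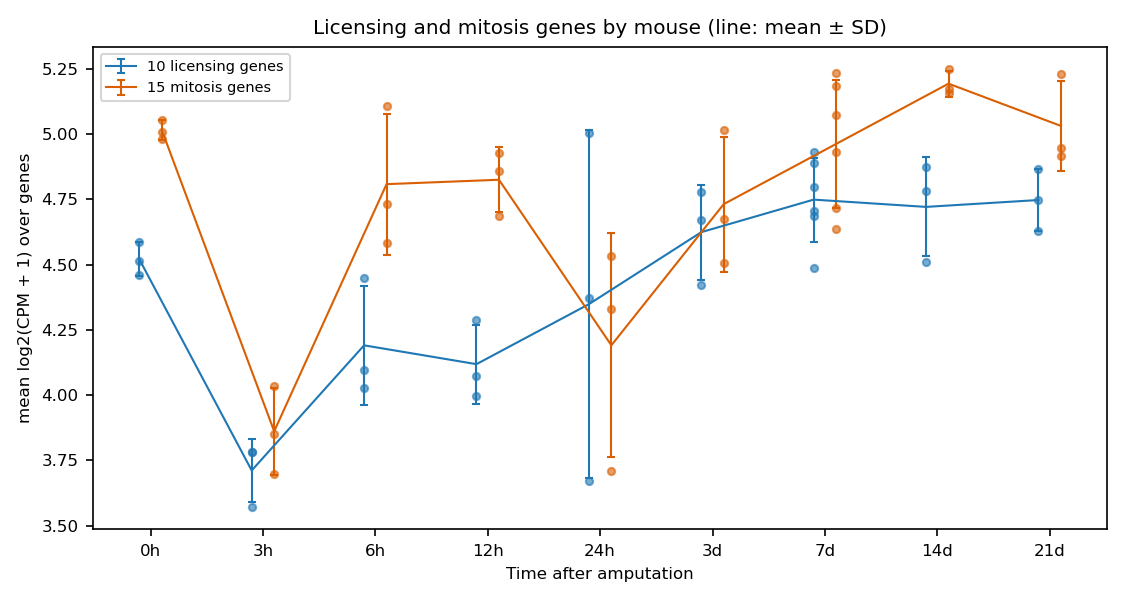
Mean log2(CPM + 1) over the 10 licensing genes (blue) and over 15 mitosis genes (orange) in each of 30 mice (points) against time after amputation, with lines through the mean ± SD of each time point on an axis that does not start at 0. Both sets are lowest at 3h, and at 24h the mitosis mean is at 4.19 while the licensing mean is at 4.35.

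Members were related to each other to different degrees. Over the 30 mice, Pearson's r of log2(CPM + 1) between pairs of helicase genes ran from 0.56 to 0.90 with a median of 0.70 over 15 pairs. Once each time point's mean was removed, the median was 0.52. Over all 45 pairs of members the medians were 0.55 and 0.37. Cdc6 had the lowest median r to the other members, at 0.30 over the 30 mice and 0.12 with time means removed. The highest was that of Mcm3 over the 30 mice, at 0.73, but with time means removed it was that of Mcm5, at 0.55, and Mcm3 had 0.37. The points share their libraries and depth.

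The 10 tested genes outside the members whose log2(CPM + 1) followed the members' mean most closely over the 30 mice were Uhrf1 (r = 0.89), Hells (0.88), Dtl (0.87), Tk1 (0.85), Cdk5rap2 (0.84), Fignl1 (0.83), Cbx5 (0.83), Racgap1 (0.82), Ung (0.82) and Lig1 (0.81). Uhrf1 is a reader of hemimethylated DNA at the fork, Hells a chromatin remodeller and Ung the uracil glycosylase that removes uracil from DNA. Dtl, Tk1 and Lig1 were also on the pathway lists. With a pseudocount of 0.1 in place of 1, 9 of the 10 stayed among the first 10, and Ung moved to rank 56.

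Markers of some other cells moved with the late phase. Of all tested genes 9.32% were called higher late and 6.09% lower, so 1 call in a list of 8 or 9 genes was close to these shares. Of the 8 osteoclast markers tested 7 were called higher late, and their summed level ran from 104 to 199.8 CPM in first-day mice and from 365 to 4233 CPM in late mice. Of the 10 osteoblast markers 7 were called higher, with sums of 887 to 3705 CPM and 5424 to 24847 CPM, and of the 9 fibroblast markers 5 were called higher and 1 lower, with sums of 2897 to 8785 CPM and 9322 to 42621 CPM. These sums rested mostly on collagens, Col1a1 for osteoblasts (median 2936 CPM) and Col1a2 and Col3a1 for fibroblasts (3820 and 2899 CPM). Lum, Prrx1 and Pdgfrb were also called higher, and the fibroblast marker called lower was Dcn (472 CPM, log2 fold change -0.75). Erythroid markers went the other way, with 3 of 5 called lower and sums of 38.4 to 337 CPM and 5.65 to 83.5 CPM. Sums of basal keratinocyte markers overlapped, at 10573 to 15655 CPM and 10379 to 15089 CPM, with 1 of 9 called, and it was lower. Suprabasal keratinocyte markers (1 of 8 called, lower), nail and hair keratinocyte markers (0 of 9), neutrophil (2 of 8 higher), macrophage (2 of 9 higher), endothelial (1 of 8 higher) and T and B lymphocyte markers (0 of 2) made up the other lists. Among erythroid markers Klf1 was at 0 counts in 25 mice and Slc4a1 in 23, but Hba-a2 in 1 and Hbb-bs in 0. Among lymphocyte markers Ms4a1 was at 0 in 27, Cd3e in 26, Cd79a in 21 and Cd3g in 14, but Cd4 in 11, Cd8a in 9 and Cd3d in 2. The part of these cell types in the licensing genes' difference was not tested.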

How the data were processed

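RNA-seq libraries from 30 mice were used. The authors aligned reads to Ensembl mouse genes with Bowtie, allowing mismatches and many hits per read, and deposited expected counts and TPM per gene from RSEM 1.2.3, so reads with several hits were divided by estimate. The submitters' processing notes also name CASAVA 1.8.2 and the build mm10. The authors' median-normalized mean TPM columns were not used. Of the deposited expected counts, 78.1% were whole numbers, and all were rounded before testing.

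Groups came from the labels. With edgeR 4.0.16 in R 4.3.3, counts were scaled by TMM, filtered by filterByExpr (13793 of 20321 genes kept) and tested with quasi-likelihood fits over all 30 mice, with Benjamini-Hochberg adjustment over all genes tested and a threshold of 0.05. DESeq2 1.42.0 and limma 3.58.1 on log2(TPM + 1) were alternatives, beside other size factors, filters of none or at least 1 CPM in 15 mice, a threshold of 0.01, a campaign term, fits without mice cut on the left foot and fits without each mouse in turn. Fits without the 3h mice, and with times of both campaigns, were added after seeing the data. The model was tested on simulated counts.

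The members, lists and named genes were chosen with earlier results of these data known. The comparison of late times with the first day was chosen with the Ccne1 profile known. Named were all members, pathway-list genes that passed either test, and the 10 genes most like the members' mean. No replicate pair agreed within sampling noise (chi-square per degree of freedom at least 9.83). The labels count 1 mouse per library, although the titles of 1 library at 0h and 1 at 12h carry the same animal tag, and replicate numbers follow accession order. Total counts of 3167625 to 16277816 limit precision for Cdc6, Cdt1 and Ccne1, and the limit for a count of 0 covers counting error only. Gene positions and exon overlaps were read from GENCODE annotation of GRCm38 and promoters from RefSeq on GRCm38.p6.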

Additional observations from a re-analysis of the deposited data

Results flagged for a closer look

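At 7d, Cdt1 in the mouse numbered 3 stood at 2.40 CPM, and the next lowest of the 6 mice at 7.59 CPM. The gap was 0.632 of the group's whole range on the log2(CPM + 1) scale, above Dixon's critical value for 6 mice. The same mouse was the highest at 7d for 5 members, with 13.5 CPM of Ccne1, 63.5 of Mcm5, 63.0 of Mcm3, 73.7 of Mcm7 and 25.1 of Mcm2. It was cut on the left foot. Of the 10 members tested in this way 1 passed, and chance passes about 1 in 20. Without this mouse, Cdt1 was called between late times and the first day (edgeR adjusted p = 0.0280).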

How the results depend on the processing

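No paired analysis was possible because the labels give no replicate number that the groups share. Of the 10 members, 3 were called over the time course. At a threshold of 0.01 the count was 1 (4.38% of all tested genes), with the DESeq2 test 5 (18.1%), without the 3h mice 1 (6.37%), and with 1 mouse left out in turn 3 to 5, where the 5 came without the 24h mouse of the later campaign (9.12%). Between late times and the first day 6 were called, 6 to 7 with 1 mouse left out, and 1 at the times with mice of both campaigns and campaign as a covariate (7.15% of all tested genes in either direction), where Pcna turned from 0.11 to -0.10 (log2, edgeR adjusted p = 0.763). At 3h against 0h, 1 member, Mcm6, was called in place of 0 with the DESeq2 test, with campaign as a covariate, and without 24h mouse 1, 24h mouse 3 or 3h mouse 1 (0 to 1 over all mice left out). On log2(TPM + 1) in limma the median of all genes at 3h against 0h was -0.14. At the other times against 0h the counts were 0 throughout, as they were for a time course that differs between campaigns with DESeq2 size factors, without the left-foot mice and at 0.01. The cause of these moves was not tested, beyond the smaller number of mice where some were left out. For single members, 153 of the other values kept their direction and side of the threshold, 10 lost and 6 gained a call and 1 turned direction. Depth limits Cdc6, Cdt1 and Ccne1, whose lowest libraries held 5, 6 and 0 counts. The order of levels was the same with log2(TPM + 0.1) for 10 of 10 genes.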
